A study of Mus musculus with 9 samples.

Results

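Oxidative phosphorylation subunit transcripts were followed in Spop knockout and wild-type mouse bone marrow cells. The set held 53 nuclear genes, given as a list of gene symbols, and all 53 were found among the 37187 genes of the LSK table and the 45076 genes of the neutrophil table. By complex, 21 belonged to complex I, 4 to complex II, 7 to complex III, 10 to complex IV and 10 to complex V, and the remaining gene was Cycs, which encodes cytochrome c. The tables listed 0 genes of the mitochondrial genome, so the subunits encoded there were not analysed here.

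Oxidative phosphorylation takes place in the inner mitochondrial membrane. Complex I (NADH dehydrogenase) and complex II (succinate dehydrogenase) pass electrons to ubiquinone, complex III passes them to cytochrome c, and complex IV (cytochrome c oxidase) passes them to oxygen, while complexes I, III and IV pump protons that drive ATP synthase, complex V. Long-term blood stem cells are known for a low reliance on this pathway and its activity increases as they leave quiescence, whereas mature neutrophils are known for few mitochondria and a largely glycolytic metabolism.

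Bulk RNA-seq libraries were made from 2 populations sorted from the bone marrow of mice aged 4 to 12 weeks. LSK cells are lineage-negative cells with surface Sca-1 and c-Kit, a population that contains the blood stem cells and early multipotent progenitors, and the second population was Ly6G+ neutrophils. Each population came from Spop(D/D) mice, the knockout or KO, and from Spop(+/+) mice, the wild type or WT, with 2 KO and 2 WT libraries of LSK cells and 3 KO and 2 WT libraries of neutrophils. Spop is the substrate-binding adaptor of a cullin-3 ubiquitin ligase. The sources used here do not name the removed exons, the cells in which they were removed or any pooling of animals, and no label says that replicates came from separate mice, so the p-values measure the spread between libraries, which may be technical.

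The libraries held 18827892 to 20264417 counts in LSK cells and 21012702 to 27434086 in neutrophils. Spop itself had 312 and 305 CPM (read counts relative to library size, scaled between libraries) in KO LSK cells, against 380 and 390 CPM in WT LSK cells, a log2 difference of -0.32 whose call (adjusted p = 0.0118) was lost without the first WT library (0.0832), without the second (0.117) and with the spread shared with neutrophils (0.874). In neutrophils Spop had 158, 178 and 210 CPM in KO and 135 and 194 CPM in WT. These are reads over the whole gene, so they do not show whether a removed exon is missing. The cell type field of the second KO LSK library says neutrophil while its title and source say LSK, and Ly6g, the neutrophil surface marker, was at 0 in all 4 LSK libraries. In neutrophils Ly6g had 699, 350 and 913 CPM in KO and 514 and 85.6 CPM in WT. Of the neutrophil libraries, the second WT and the third KO library stood apart. Neutrophil markers summed to 213185, 221327 and 643361 CPM in KO and to 207918 and 36853 CPM in WT. Markers of dendritic cells and MHC class II summed to 17.9, 43.5 and 86.2 CPM in KO and 549 and 24948 CPM in WT, B cell markers to 3.08 to 10.2 CPM in KO and 69.9 and 1812 CPM in WT, and T and NK cell markers to 35.1 to 132 CPM in KO and 178 and 716 CPM in WT. Red cell markers summed to 35.9, 1.93 and 18323 CPM in KO and 1730 and 3653 CPM in WT.

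In LSK cells, subunit transcripts of all 5 complexes were higher in KO than in WT. The test was edgeR's quasi-likelihood test with Benjamini-Hochberg adjustment over all 13008 genes tested, and a gene passed at an adjusted p under 0.05. Of the 53 subunit genes, 36 rose, 0 fell and 17 did not pass, and 51 of the 53 estimates were above 0. The median log2 fold change was 0.41, a fold of 1.33, against a median of -0.03 over all genes tested. Among all genes tested, 42.2% passed in either direction, 21.0% as higher in KO and 21.2% as lower in KO. Of the 53 subunit genes, 67.9% passed as higher, but they were listed with earlier results of these data known. Among other nuclear subunits, 7 of 24 tested genes (29.2%) passed as higher. The split over all genes, 2738 higher and 2756 lower, moved with the scaling, to 2207 higher and 3445 lower with upper-quartile scaling and 1859 higher and 3887 lower with library size alone. The KO and WT libraries did not overlap for 43 subunit genes, with both KO libraries above both WT libraries for 42 and below them for 1, while over all genes tested 34.6% had both KO libraries above and 38.3% had both below. The estimates ran between -0.24 for Uqcrh and 0.90 for Uqcrq, a fold of 1.87.

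Added over the 53 genes, the KO LSK libraries held 16784 and 16452 CPM, against 12525 and 11415 CPM in the WT libraries. As a share of all reads this was 1.59% and 1.56% in KO, against 1.31% and 1.22% in WT. Both KO libraries lay above both WT libraries. In these bulk libraries, a change in the share of a cell type and a change in RNA per cell cannot be told apart.

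Of the 36 genes that rose, 14 passed under each of 11 other settings of the test: Ndufa10, Ndufa9, Ndufb6, Ndufs1 and Ndufv1 of complex I, Sdhd of complex II, Uqcrq, Cyc1 and Uqcrc1 of complex III, Cox5a of complex IV, and Atp5a1, Atp5b, Atp5g3 and Atp5o of complex V. Without the second WT library 15 of the 53 genes passed, and scaling by library size alone, which lowered the median of all genes tested to -0.19, left 22 higher and 1 lower. In a fit that shared 1 estimate of the spread with the neutrophil libraries, 0 of the 53 genes passed in LSK cells.

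**Figure D1:**
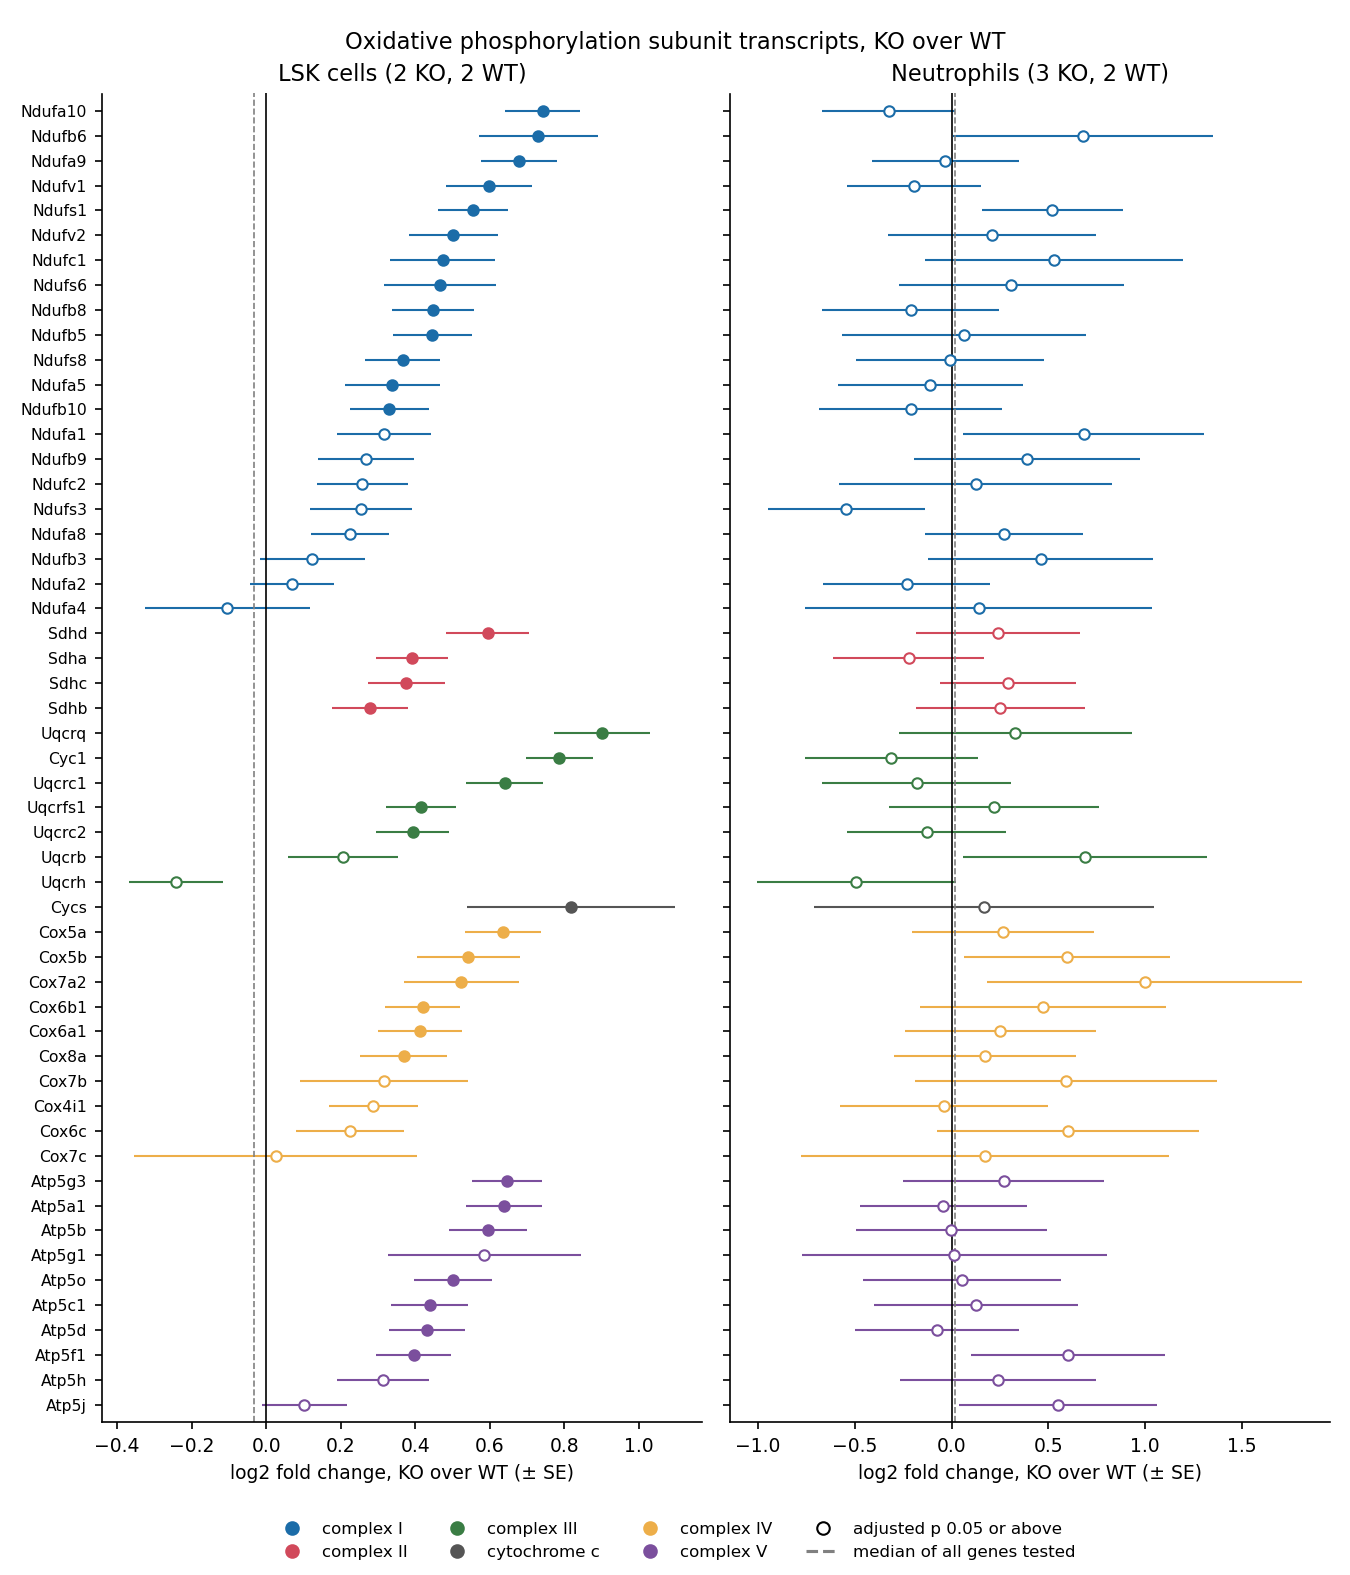
Log2 fold change, KO over WT, with its standard error for each of the 53 subunit genes in LSK cells and in neutrophils, ordered by complex; filled points have an adjusted p under 0.05 and the dashed line is the median of all genes tested. In LSK cells 51 of 53 points lie above 0 and 36 are filled, whereas in neutrophils none of the 53 is filled and the standard errors are wider.

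Promoter sequence was examined because many of these genes moved the same way and because NRF1, GABP (an ETS factor) and YY1 are known regulators of respiratory chain genes. RefSeq promoter windows (build GRCm38.p6), running from 250 bases before the start to 50 bases after it, matched 42 of the 53 genes. Each motif was searched on both strands. Shares are of genes with a match in any of their windows. The NRF1 core was in 11 of 42 genes (26.2%), against 11.5% of genes tested in LSK cells and 5.19% of all genes with a window. The ETS core CCGGAAG was also in 11 (26.2%), against 20.3% and 9.93%. The YY1 core AAGATGGCG was in 4 (9.52%), against 3.67% and 1.64%. The GC box GGGCGG was in 17 genes (40.5%), against 68.1% of genes tested and 38.2% of all genes. The E box CACGTG was in 4 (9.52%), against 11.7% and 8.09%, so that for both the direction depends on the background. The TATA box TATAAA was in 0 of 42, against 8.49% of genes tested and 15.7% of all genes. The 6 motifs were searched separately, and a match is a description of letters, not of a bound site.

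The bases before the start that hold an NRF1 or ETS match and lie in no annotated exon are shown for 6 subunit genes with such a stretch, because they show how the matches sit in genes that rose (Sdha, Sdhd, Cox6a1, Ndufb6), in Atp5h, which did not pass, and in Uqcrh, the gene with the lowest estimate. Capitals mark the matches, the NRF1 core on either strand and CCGGAAG or CTTCCGG for ETS. Build GRCm38.p6, each read 5′ to 3′ on the gene's strand.
Sdha (chr13:74350281-74350308, minus strand): ggaggggcgtgttGCGCAGGCGCagaat
Sdhd (chr9:50603850-50603909, minus strand): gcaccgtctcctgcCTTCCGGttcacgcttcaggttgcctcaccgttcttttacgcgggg
Cox6a1 (chr5:115349010-115349129, minus strand): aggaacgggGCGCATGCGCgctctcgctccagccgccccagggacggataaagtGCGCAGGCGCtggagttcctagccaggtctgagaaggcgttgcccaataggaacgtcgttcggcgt
Atp5h (chr11:115419996-115420115, minus strand): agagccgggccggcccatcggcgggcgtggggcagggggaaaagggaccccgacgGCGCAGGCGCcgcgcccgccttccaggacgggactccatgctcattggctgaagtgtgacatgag
Ndufb6 (chr4:40279552-40279671, minus strand): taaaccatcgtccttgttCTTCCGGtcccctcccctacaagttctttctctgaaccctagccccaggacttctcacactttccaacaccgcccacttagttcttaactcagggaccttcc
Uqcrh (chr4:116075072-116075191, minus strand): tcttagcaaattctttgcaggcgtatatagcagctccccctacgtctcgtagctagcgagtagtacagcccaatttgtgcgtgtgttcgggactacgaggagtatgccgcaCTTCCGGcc
Cox6a1 carries 2 NRF1 matches in this stretch and the other 5 genes carry 1 match each in theirs. Over their whole windows, Sdhd, Atp5h and Cox6a1 each hold both the NRF1 and the ETS core. Uqcrh and Sdhd share the ETS core, and their estimates had opposite signs, but Sdhd also holds the NRF1 core and Uqcrh does not.

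Complex I, the entry point of NADH electrons, had 13 of its 21 measured genes higher in KO LSK cells and 0 lower, with a median log2 fold change of 0.37. Its core subunits, which carry the flavin and iron-sulfur clusters, had 4 of 5 higher (median 0.50), and its accessory subunits, which surround that core, had 9 of 16 higher (median 0.33). Ndufa10 (chr1:92439010-92473860, minus strand), an accessory subunit with a nucleoside-kinase-like fold, had 183 and 205 CPM in KO, against 115 and 116 CPM in WT, a log2 fold change of 0.74 (SE 0.10, edgeR adjusted p = 8.98e-05). Ndufa9, an accessory subunit near the joint of the membrane and peripheral arms, had 277 and 296 CPM in KO, against 193 and 165 CPM in WT (log2 0.68, SE 0.10, adjusted p = 0.000199). Both KO libraries were above both WT libraries for each gene, and the KO libraries differed from each other by less than the groups did.

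Ndufs1, the largest core subunit and a carrier of iron-sulfur clusters, had 183 and 189 CPM in KO, against 127 and 126 CPM in WT (log2 0.56, SE 0.09, adjusted p = 0.000498). Ndufv1, the core subunit that binds NADH and flavin, had 231 and 292 CPM in KO, against 180 and 166 CPM in WT (log2 0.60, SE 0.12, adjusted p = 0.00143). These 2 genes of the NADH-binding end of the complex rose by similar amounts, and their groups did not overlap. Ndufs3, a core subunit of the peripheral arm, had 50.9 and 59.3 CPM in KO and 49.9 and 42.5 CPM in WT, and its log2 estimate of 0.25 did not pass (adjusted p = 0.153).

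Of the other complex I genes, Ndufb6, an accessory subunit of the membrane arm, had 107 and 74.4 CPM in KO, against 56.7 and 52.5 CPM in WT (log2 0.73, SE 0.16, adjusted p = 0.00382). Ndufv2, the partner of Ndufv1 in the NADH-binding part, had 428 and 332 CPM in KO, against 280 and 257 CPM in WT (log2 0.50, adjusted p = 0.00546). In both, the first KO library stood well above the second, which was itself above WT. A further 7 genes rose by between 0.33 (Ndufb10) and 0.47 (Ndufc1) on the log2 scale: Ndufs8, a core iron-sulfur subunit, and the accessory subunits Ndufa5, Ndufb5, Ndufb8, Ndufb10, Ndufc1 and Ndufs6. The calls of these 7 genes and of Ndufv2 were lost without the second WT library. Upper-quartile scaling also lost those of Ndufa5, Ndufb10 and Ndufs6, and library size alone lost these and those of Ndufc1 and Ndufs8. Ndufa5 kept its call in 3 of the 11 other settings and Ndufs6 in 6. Beside Ndufs3 and Ndufa4, the accessory subunits Ndufa1, Ndufa2, Ndufa8, Ndufb3, Ndufb9 and Ndufc2 did not pass, with estimates between 0.07 (Ndufa2) and 0.32 (Ndufa1).

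Ndufa4 was the complex I member with the largest p-value. It is listed with complex I by name, and later biochemical work placed its protein in complex IV. It had 494 and 316 CPM in KO and 465 and 405 CPM in WT, so that the first KO library was above both WT libraries and the second was below them. Its log2 estimate was -0.10 (SE 0.22, adjusted p = 0.747), with -0.42 without the first KO library (adjusted p = 0.000537) and 0.19 without the second (adjusted p = 0.125). Without Ndufa4, complex I had 13 of 20 genes higher and a median of 0.41.

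All 4 genes of complex II, the succinate dehydrogenase that also serves the citric acid cycle, were higher in KO LSK cells, with a median log2 fold change of 0.38. Sdhd, a membrane anchor subunit, changed most, at 723 and 595 CPM in KO, against 462 and 412 CPM in WT (log2 0.59, SE 0.11, adjusted p = 0.00111). Sdha (chr13:74322254-74350280, minus strand), the flavoprotein that oxidises succinate, had 580 and 643 CPM in KO, against 446 and 487 CPM in WT (log2 0.39, SE 0.10, adjusted p = 0.00612). In each of the 4 genes both KO libraries exceeded both WT libraries.

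Sdhc, the other membrane anchor, had 226 and 244 CPM in KO, against 195 and 167 CPM in WT (log2 0.38, SE 0.10, adjusted p = 0.011). Sdhb, the iron-sulfur subunit, had 266 and 298 CPM in KO, against 247 and 217 CPM in WT (log2 0.28, SE 0.10, adjusted p = 0.0426). Sdhb was the smallest change of the complex. Its call was lost with upper-quartile scaling, with library size alone, without the second KO library and without either WT library. The calls of Sdha (adjusted p = 0.109 without the first WT library) and Sdhc (0.174 without the second) were also lost when 1 WT library was left out.

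Complex III, which transfers electrons from ubiquinol to cytochrome c, held both the highest and the lowest estimate of the whole set. Of its 7 genes 5 were higher and 0 lower, and the median log2 fold change was 0.41 with an SD between its genes of 0.39, the widest spread of the 5 complexes. Uqcrq (chr11:53427922-53430831, minus strand), a small membrane subunit, had 182 and 139 CPM in KO, against 88.3 and 83.4 CPM in WT, a 1.87-fold difference (log2 0.90, SE 0.13, adjusted p = 0.000172). Cyc1 (chr15:76343523-76346260, plus strand), cytochrome c1, the haem protein that hands electrons to cytochrome c, had 346 and 359 CPM in KO, against 208 and 201 CPM in WT (log2 0.79, SE 0.09, adjusted p = 2.63e-05). The groups lay far apart for both genes, and Cyc1 had the smallest p-value of the 53.

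Uqcrc1, a core subunit on the matrix side, had 682 and 791 CPM in KO, against 497 and 448 CPM in WT (log2 0.64, SE 0.10, adjusted p = 0.000348). Uqcrfs1, the Rieske iron-sulfur protein, had 227 and 242 CPM in KO, against 181 and 171 CPM in WT (log2 0.41, SE 0.09, adjusted p = 0.00354, and 0.0629 without the second WT library). Uqcrc2, the other core subunit, had 445 and 397 CPM in KO, against 336 and 305 CPM in WT (log2 0.39, adjusted p = 0.00642, and 0.111 without the second WT library). Uqcrb, a small subunit at the ubiquinone site, did not pass, with 61.5 and 49.5 CPM in KO and 52.8 and 43.4 CPM in WT (log2 0.21, SE 0.15, adjusted p = 0.281). The groups were apart for Uqcrc1, Uqcrfs1 and Uqcrc2 and overlapped for Uqcrb.

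Uqcrh, the acidic hinge protein that sits beside cytochrome c1, was picked out after its values were seen. It had 135 and 104 CPM in KO and 146 and 136 CPM in WT, and it was the only one of the 53 genes with both KO libraries below both WT libraries. Its log2 estimate of -0.24 (SE 0.13) did not pass (adjusted p = 0.142), but it passed as lower with upper-quartile scaling (-0.34, adjusted p = 0.0378), with library size alone (-0.40, adjusted p = 0.0222) and without the first KO library (-0.41, adjusted p = 0.0032). Pseudogenes are named after it in the annotation, and 7.83% of the 50-base stretches of its transcript also occur in one of them, Uqcrh-ps1.

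Cycs, the mobile electron carrier between complexes III and IV, had 9.06 and 8.29 CPM in KO, against 5.83 and 4.03 CPM in WT (log2 0.82, SE 0.28, adjusted p = 0.0318). The groups did not overlap. Its levels were low, and 28.5% of the 50-base stretches of its transcript also occur in other genes, among them the pseudogenes Cycs-ps2 and Cycs-ps3. Its call was lost with DESeq2 (adjusted p = 0.0599), with library size alone, without the first KO library and without the second WT library.

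Complex IV, the terminal oxidase, had 6 of its 10 measured genes higher in KO LSK cells and 0 lower, with a median log2 fold change of 0.39. Cox5a, a matrix-side subunit, changed most, at 307 and 344 CPM in KO, against 223 and 196 CPM in WT (log2 0.64, SE 0.10, adjusted p = 0.000311). Cox6b1, a subunit on the intermembrane side, had 258 and 232 CPM in KO, against 193 and 174 CPM in WT (log2 0.42, SE 0.10, adjusted p = 0.00478). Cox5b, a matrix-side zinc-binding subunit, had 55.2 and 51 CPM in KO, against 39.9 and 33 CPM in WT (log2 0.54, SE 0.14, adjusted p = 0.00726). None of these 3 overlapped between the groups, and the calls of Cox6b1 (adjusted p = 0.0874) and Cox5b (0.0986) were lost without the second WT library. Cox6a1, with 180 and 202 CPM in KO, against 157 and 130 CPM in WT (log2 0.41, adjusted p = 0.0112), and Cox8a, with 139 and 163 CPM in KO, against 126 and 107 CPM in WT (log2 0.37, adjusted p = 0.0228), are further nuclear subunits that rose. Both calls were also lost without the second WT library and with library size alone. The Cox8a call was further lost with upper-quartile scaling and without the second KO library.

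Cox4i1, the common isoform of the regulatory subunit that binds adenine nucleotides, had 752 and 587 CPM in KO and 575 and 522 CPM in WT (log2 0.29, SE 0.12). It did not pass (adjusted p = 0.0725), although both KO libraries were above both WT libraries and it passed with DESeq2 (0.0266). Cox7a2, the liver-type isoform of a small membrane subunit, rose, with 190 and 134 CPM in KO, against 118 and 107 CPM in WT (log2 0.52, SE 0.15, adjusted p = 0.0218, with 0.0691 without the first WT library and 0.148 without the second). The KO libraries of Cox7a2 differed from each other by more than the second differed from WT.

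Cox7b, another small membrane subunit, was picked out after its values were seen because of the same pattern. It had 215 and 134 CPM in KO and 146 and 135 CPM in WT, and its log2 estimate of 0.32 did not pass (adjusted p = 0.318). Cox7c, a further small subunit, was the complex IV member with the largest p-value, at 2.97 and 2.92 CPM in KO and 2.79 and 3 CPM in WT (log2 0.03, adjusted p = 0.966). Its levels were low, and 53% of the 50-base stretches of its transcript also occur in 3 other genes.

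Complex V, the ATP synthase, had 7 of its 10 genes higher in KO LSK cells and 0 lower, and its median log2 fold change of 0.47 was the highest of the 5 complexes, a rank that passed to complex III when genes with shared sequence were left out. The 4 genes of the catalytic F1 sector all rose (median 0.52). Atp5b (chr10:128083273-128090391, plus strand), the catalytic beta subunit, had 2822 and 3111 CPM in KO, against 2065 and 1862 CPM in WT (log2 0.60, SE 0.10, adjusted p = 0.000643). Atp5a1, the alpha subunit that alternates with beta, had 1643 and 1890 CPM in KO, against 1151 and 1120 CPM in WT (log2 0.64, SE 0.10, adjusted p = 0.00032). Both groups were apart for these 2 abundant transcripts, and both calls held when any single library was left out. Atp5c1 and Atp5d, the gamma and delta subunits of the central stalk, rose by 0.44 (adjusted p = 0.00424) and 0.43 (adjusted p = 0.00467), and these 2 calls were lost without the second WT library (0.0977 for Atp5c1 and 0.0623 for Atp5d).

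The c subunit forms the rotating ring in the membrane and is encoded by 3 genes with the same mature protein. Atp5g3 rose, at 492 and 479 CPM in KO, against 324 and 296 CPM in WT (log2 0.65, SE 0.09, adjusted p = 0.000142). Atp5g1 had only 8.23 and 7.92 CPM in KO and 5.32 and 5.44 CPM in WT, and its estimate of 0.59 did not pass (SE 0.26, adjusted p = 0.0855). Atp5g2, which is not among the 53 genes, had 0.0521 and 0.213 CPM in KO and 0.152 and 0.141 CPM in WT and was too low to be tested. The listed c-subunit reads therefore came almost wholly from Atp5g3 in both groups, and the groups did not overlap for Atp5g3 or Atp5g1.

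The peripheral stalk, which holds the catalytic head still, had 2 of 4 genes higher (median 0.35). Atp5f1, the b subunit, had 435 and 378 CPM in KO, against 324 and 294 CPM in WT (log2 0.40, SE 0.10, adjusted p = 0.00721, and 0.115 without the second WT library). Atp5o, the subunit that joins the stalk to the head and gives oligomycin sensitivity, had 224 and 206 CPM in KO, against 163 and 141 CPM in WT (log2 0.50, adjusted p = 0.0019). Atp5h, the d subunit, had 81.9 and 68.7 CPM in KO and 61.7 and 59.6 CPM in WT, and did not pass (log2 0.31, adjusted p = 0.0574). Atp5j, coupling factor 6, was the complex V member with the largest p-value, at 241 and 203 CPM in KO and 224 and 190 CPM in WT (log2 0.10, SE 0.11, adjusted p = 0.503). Atp5j overlapped between the groups, and 12.7% of its exon bases lie opposite exons of Gabpa. The libraries do not mark strand, so reads of these genes cannot be told apart there.

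**Figure D2:**
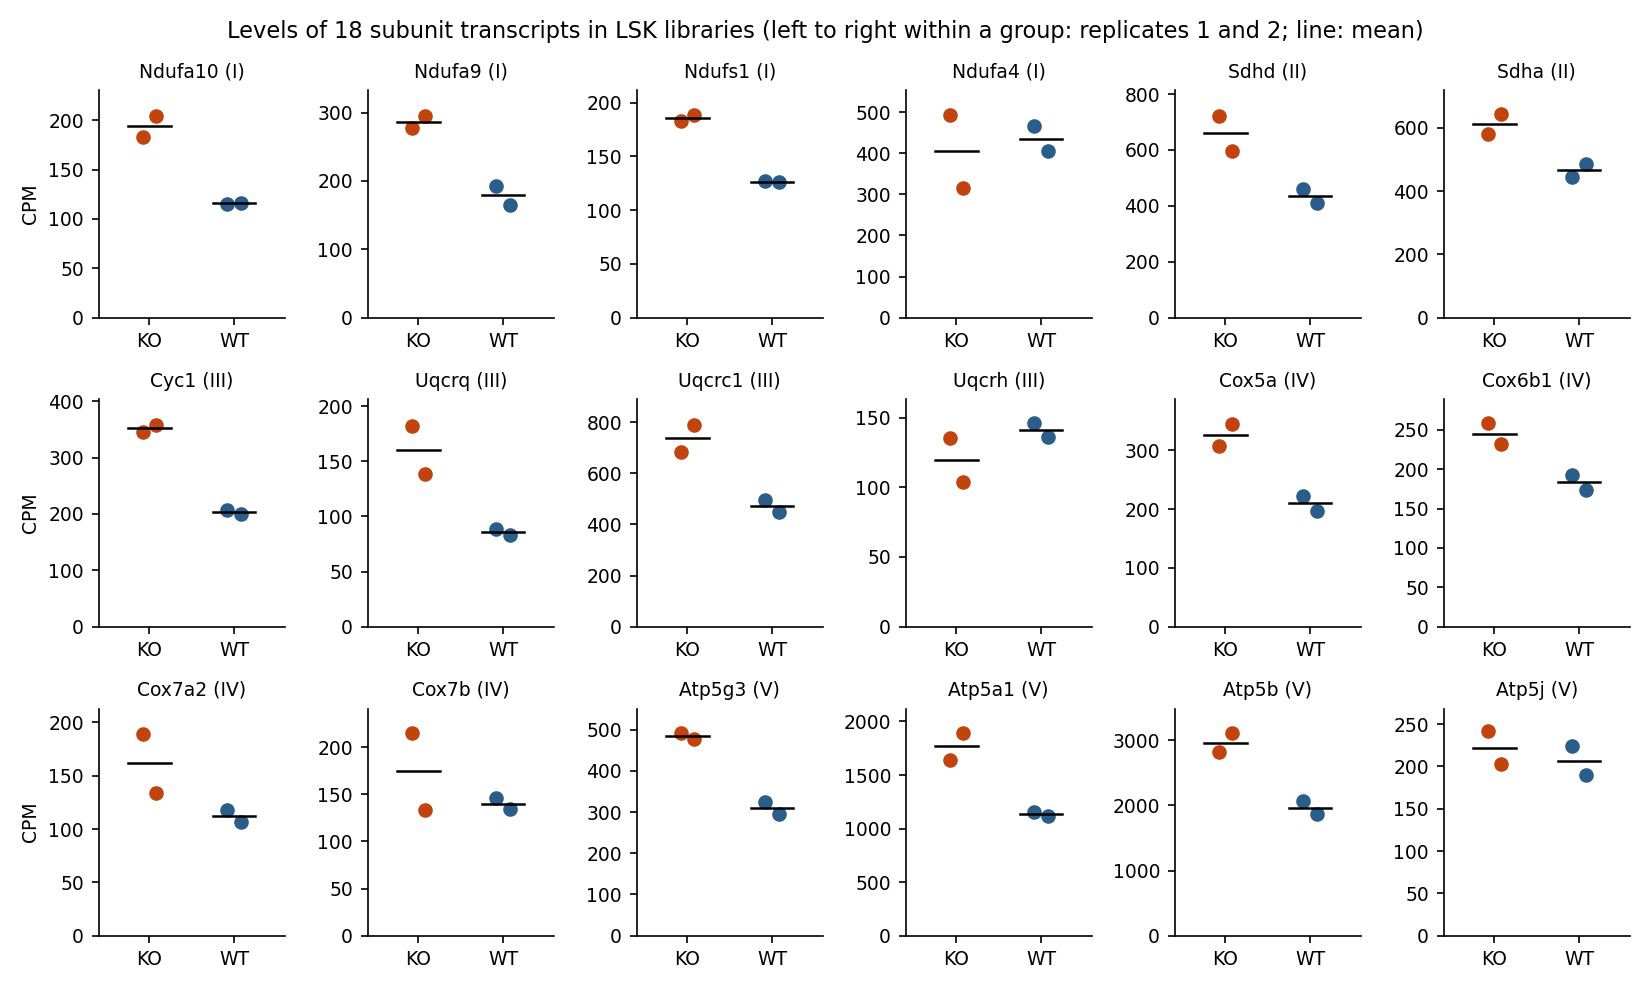
CPM (scaled between libraries) of 18 subunit transcripts in the 2 KO and 2 WT LSK libraries, with the mean of each group as a line and the complex in brackets. Most genes have both KO points above both WT points, whereas in Ndufa4, Cox7b and Atp5j the groups overlap and in Uqcrh both KO points lie below both WT points.

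The complexes were set side by side by their medians. In LSK cells these were 0.37 for complex I, 0.38 for II, 0.41 for III, 0.39 for IV and 0.47 for V. The SD between genes within a complex lay between 0.13 for complex II and 0.39 for complex III, so the medians lay closer together than the genes within each complex. Relative to the mean of the WT libraries, the median gene stood at 0.46 in the first KO library and 0.36 in the second, and at 0.07 and -0.08 in the WT libraries. By complex, the KO medians ran between 0.29 (complex IV, second library) and 0.52 (complex V, first library) and the WT medians between -0.09 and 0.09. Each of the 5 complexes was thus higher in both KO libraries than in both WT libraries.

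**Figure D3:**
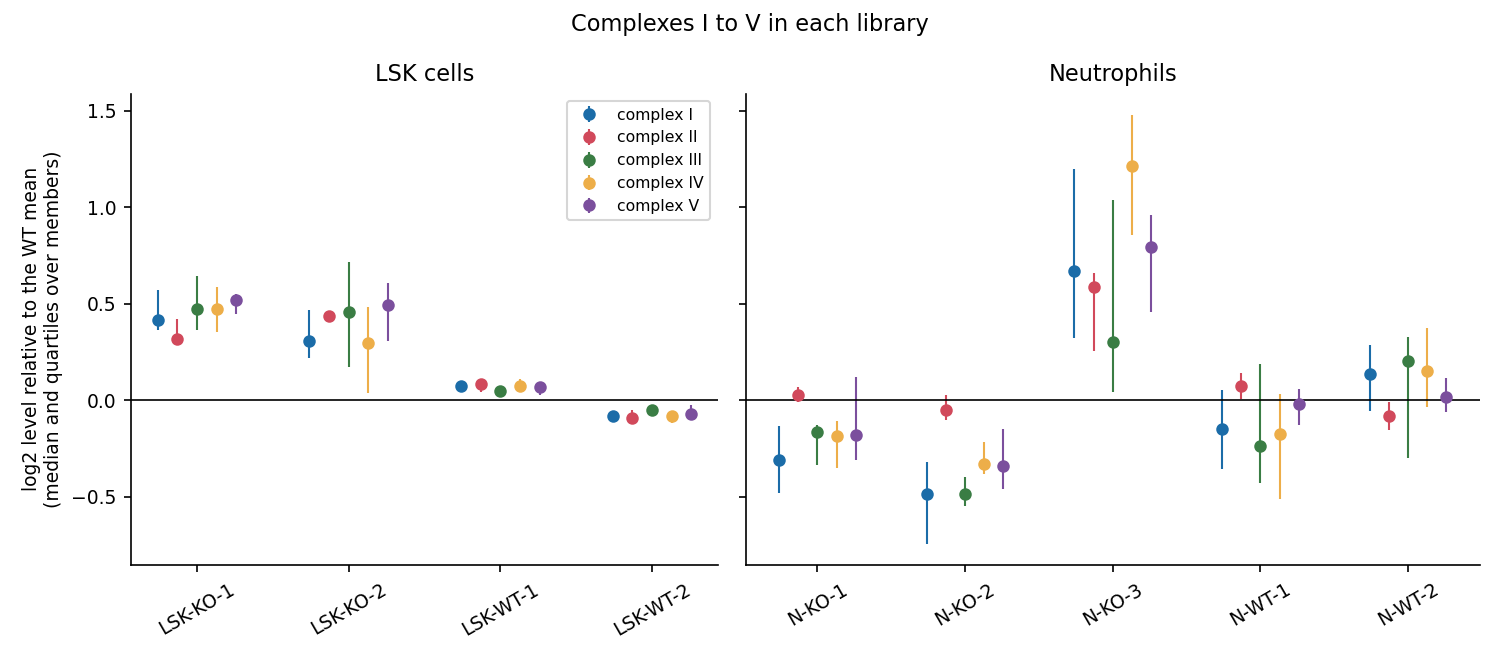
Median log2 level of the genes of each complex relative to the mean of the WT libraries of the same population, for each library, with quartiles over genes as bars. In LSK cells the 5 complexes sit between 0.29 and 0.52 in the KO libraries and between -0.09 and 0.09 in the WT libraries; in neutrophils the third KO library stands at 0.30 to 1.21 and the other 2 KO libraries at -0.49 to 0.03.

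Members that differ in what they share with other genes were also compared. Because the libraries do not mark strand, reads of opposite genes cannot be told apart where their exons overlap. Exons of 17 of the 53 genes overlap those of an opposite-strand gene, and 3 genes have a pseudogene named after them. Of the 53, 20 share over 10% of the 50-base stretches of their transcript with other genes. Among the other 33 genes 25 rose in LSK cells, with a median of 0.42. The smaller, less ambiguous set therefore had a median close to that of all 53, although the medians of complex III (0.64) and complex V (0.60) were higher without the shared genes.

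Levels of different genes were compared per kilobase of exon. Atp5b was the highest of the 53 in LSK cells, at 666 and 734 CPM per kilobase in KO, against 487 and 439 CPM per kilobase in WT. Atp5a1 followed at 524 and 603 CPM per kilobase in KO, against 367 and 357 in WT, and Sdhd at 588 and 483 in KO, against 375 and 334 in WT. The ranges of Atp5a1 and Sdhd overlap within each group, and the order below Atp5b depends on the length used. Per kilobase of principal transcript Atp5b was still the highest, with a mean of 1548 CPM per kilobase in KO and 1025 in WT. Cox4i1 was second by mean in both groups (875 in KO and 717 in WT), with Ndufa4 close to it in WT (713, and 664 in KO). Atp5a1 (715 in KO and 460 in WT) and Sdhd (535 in KO and 355 in WT) were below Cox4i1. The lowest were Cox7c (2.63 and 2.59 in KO, 2.46 and 2.65 in WT), Cycs (2.66 and 2.44 in KO, 1.71 and 1.18 in WT) and Atp5g1 (1.68 and 1.61 in KO, 1.08 and 1.11 in WT), each in CPM per kilobase of exon. Of their 50-base stretches, 53%, 28.5% and 11.6% also occur in other genes. The part of this sharing in their low levels was not tested.

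Within neutrophils the order was different at the top and the same at the bottom. Per kilobase of exon, Cox6b1 had 250, 246 and 763 CPM per kilobase in KO, against 246 and 359 in WT, and Cox6a1 had 262, 271 and 546 in KO, against 311 and 292 in WT. Their ranges overlap, and which had the higher mean in KO rested on the third KO library. Cox4i1 had a mean per kilobase of exon in WT (301.5) that was close to those of Cox6b1 (302) and Cox6a1 (302), and per kilobase of principal transcript it was the highest in both groups, with a mean of 594 in KO and 611 in WT. Atp5b stood at 231, 177 and 198 CPM per kilobase in KO neutrophils and 249 and 156 in WT neutrophils. Cycs and Atp5g1 were again the lowest, under 1 CPM per kilobase in each neutrophil library. The 2 tables were scaled separately, so a level of one population was not tested against the other.

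The rest of the pathway in LSK cells was read from lists of further genes. Other nuclear subunits had 7 of 24 tested genes higher and 0 lower (median log2 0.19), below the 36 of 53. As a share this was 29.2%, against 67.9% of the 53 and 21.0% of all genes tested. Uqcr11, a small complex III subunit, was among those that rose, with 86.7 and 72.6 CPM in KO, against 60.4 and 55.9 CPM in WT (log2 0.45, adjusted p = 0.0109). Both KO libraries were above both WT libraries.

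Of 10 tissue or hypoxia isoforms, 5 were high enough to test. Cox4i2, the hypoxia-responsive isoform of the complex IV regulatory subunit, rose, at 6.15 and 5.96 CPM in KO, against 2.03 and 1.83 CPM in WT (log2 1.65, adjusted p = 0.00205), although Cox4i1 remained far more abundant in both groups. Cox7a2l, a relative of Cox7a2 known to hold complexes III and IV together in supercomplexes, fell to 57.5 and 59.1 CPM in KO, against 87.5 and 80.6 CPM in WT (log2 -0.53, adjusted p = 0.00257). The groups were apart for both isoforms, which moved in opposite directions.

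Counted in either direction, 42.2% of all genes tested passed. The assembly factors were near this, with 42.9% for complex I, 40.0% for complexes II and III and 38.9% for complex IV. By the share higher in KO alone, complex I (42.9%) and complex IV (33.3%) assembly genes stood above the 21.0% of all genes tested. Those of complexes II and III, with 2 of 10 higher, were near it. Complex I assembly genes had 6 of 14 higher and 0 lower (median 0.35), among them Ecsit, an assembly factor also known from Toll-like receptor signalling, at 91.4 and 95.5 CPM in KO, against 53.1 and 51.7 CPM in WT (log2 0.83, adjusted p = 8.66e-05). Complex II and III assembly genes had 2 higher and 2 lower of 10 (median -0.08): Uqcc1 and Bcs1l rose, and Uqcc3 (log2 -0.53, adjusted p = 0.00629) and Sdhaf4 (log2 -0.51, adjusted p = 0.0184) fell. Complex IV assembly genes had 6 higher and 1 lower of 18 (median 0.22). Lrpprc, which stabilises mitochondrial mRNAs, had 201 and 205 CPM in KO, against 96.6 and 98.1 CPM in WT (log2 1.06, adjusted p = 4.5e-06), and Cox10, which makes haem O for complex IV, had 41.7 and 43.5 CPM in KO, against 23.1 and 23.3 CPM in WT (log2 0.87, adjusted p = 0.000332). Complex V assembly genes had 0 of 3 past the threshold.

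Among 9 regulators of mitochondrial biogenesis 3 rose and 1 fell, a share of 44.4% that is near the 42.2% of all genes tested. Counted as higher in KO alone, the share was 33.3%, against 21.0% of all genes tested. Gabpa, the ETS subunit of GABP, rose to 121 CPM in each KO library, against 90.6 and 83.9 CPM in WT (log2 0.47, adjusted p = 0.00289), and Pprc1, a coactivator related to PGC-1, rose to 178 and 168 CPM in KO, against 128 and 120 CPM in WT (log2 0.48, adjusted p = 0.00171). Myc also rose (log2 0.42, adjusted p = 0.00357). Ppargc1a, which encodes PGC-1alpha, fell to 0.886 and 0.638 CPM in KO, against 2.13 and 2.63 CPM in WT (log2 -1.63, adjusted p = 0.0213), a difference at very low level. Of 10 genes for mitochondrial DNA maintenance and transcription 0 passed edgeR's test and 1 had an unadjusted p under 0.05.

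Further mitochondrial and growth lists also had most of their tested genes higher in KO, except that of cytosolic ribosomal protein genes. The citric acid cycle and pyruvate dehydrogenase had 13 of 16 higher and 0 lower (median 0.46), with citrate synthase, Cs, at 329 and 351 CPM in KO, against 190 and 186 CPM in WT (log2 0.86, adjusted p = 1.52e-05). Mitochondrial import and outer membrane genes had 13 of 16 higher and 0 lower (median 0.56), with the chaperonin Hspd1 at 377 and 366 CPM in KO, against 164 and 168 CPM in WT (log2 1.16, adjusted p = 1.55e-06). Mitochondrial ribosomal protein genes had 47 of 76 higher and 0 lower (median 0.40), a median near that of the 53 subunit genes. Cytosolic ribosomal protein genes had 6 higher and 11 lower of 80 (median 0.01), with log2 values spread between -2.75 and 1.29. Glycolysis genes had 14 higher and 3 lower of 18 (median 0.69).

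Cell cycle and cell type markers moved in the same libraries. S-phase genes had 17 of 19 higher (median 0.81) and genes of the G2 and M phases had 16 of 19 higher (median 0.93), with 0 lower in either. The 5 markers of granulocyte-monocyte precursors were all higher, with a summed level of 15992 and 18779 CPM in KO, against 1570 and 2096 CPM in WT, and 7 of 8 LSK progenitor markers were lower, with sums of 2684 and 2934 CPM in KO, against 4825 and 4535 CPM in WT. Neutrophil markers were split, with 2 higher and 2 lower of 8 tested and log2 values between -3.17 and 2.97. They summed to 109 and 45 CPM in KO and 35.3 and 47.4 CPM in WT. B cell markers were lower in 6 of 6 tested (median log2 -5.17). Their sums were 61.8 and 66.7 CPM in KO and 158 and 147 CPM in WT. Monocyte and macrophage markers summed to 545 and 787 CPM in KO and 103 and 134 CPM in WT, but the list was split, with 4 higher and 3 lower of 8 and log2 values between -4.93 and 3.38. Markers of dendritic cells and MHC class II had 4 of 6 lower. They summed to 444 and 565 CPM in KO and 1098 and 1095 CPM in WT. Red cell markers had 6 of 8 lower (median log2 -6.44). Their sums were 36.4 and 47.4 CPM in KO and 64.6 and 71.5 CPM in WT. The part of these cell cycle and cell type markers in the subunit result was not tested.

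**Figure D4:**
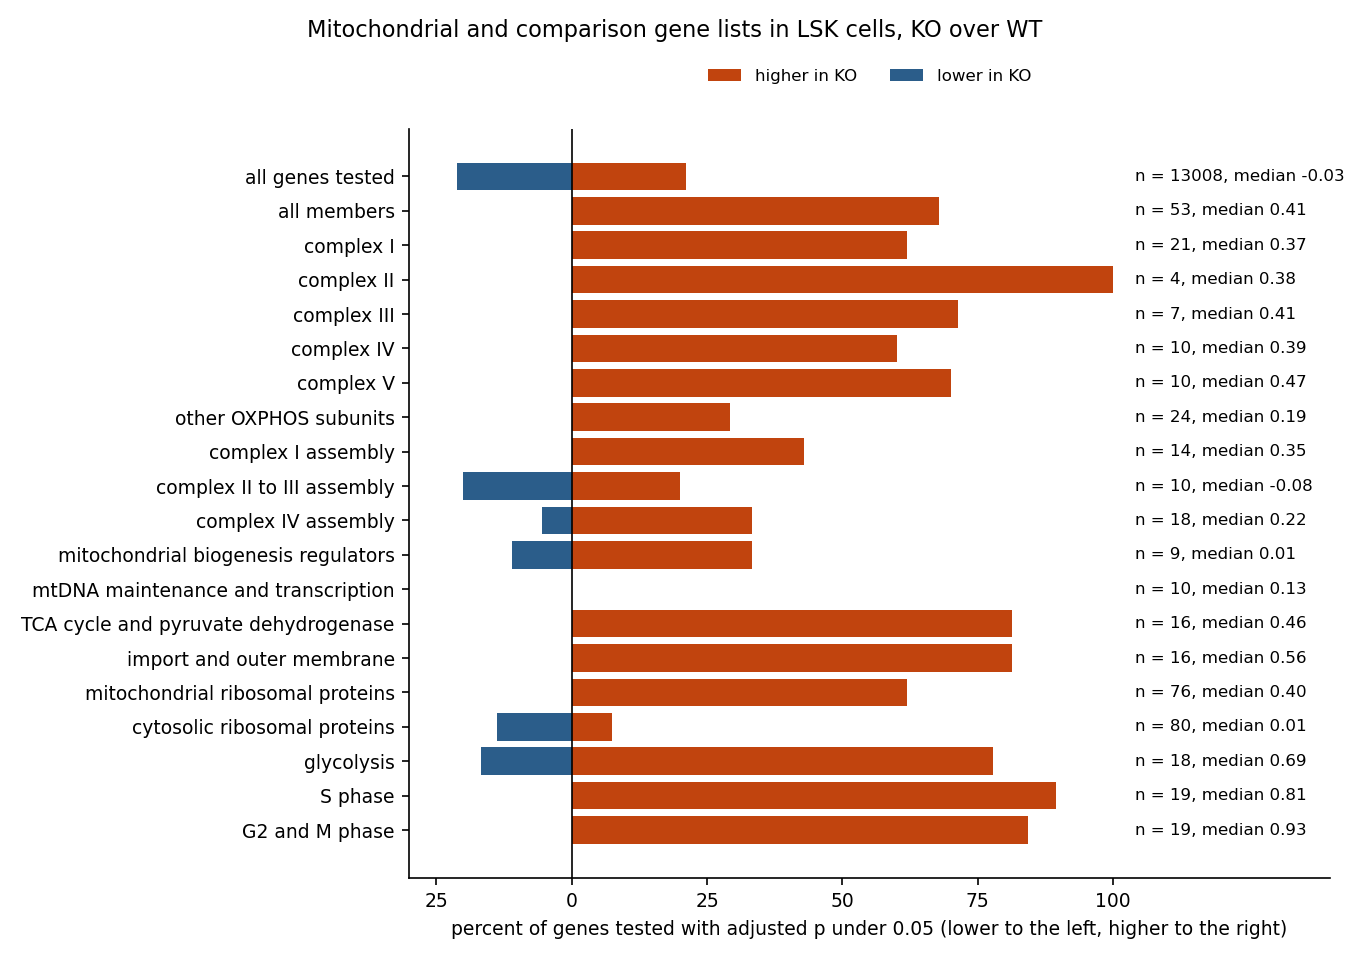
Percent of the tested genes of each list with an adjusted p under 0.05 in LSK cells, higher in KO to the right and lower in KO to the left, with the number tested and the median log2 fold change. Complex II has all 4 genes higher and the other 4 complexes run between 60.0% and 71.4% higher, against 21.0% higher and 21.2% lower for all genes tested.

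In neutrophils no difference between KO and WT was found for the subunit genes. By edgeR's test, 0 of the 53 passed, 0 had an unadjusted p under 0.05 and the smallest adjusted p was 0.564, and DESeq2 also gave 0 adjusted and 0 unadjusted. Of all 12836 genes tested, 0.0% passed, 1787 had an unadjusted p under 0.05, and DESeq2, which tested more genes, called 252 higher and 680 lower. The median log2 fold change of the 53 was 0.17, against 0.02 over all genes tested, with complex medians of 0.12 for complex I, 0.25 for II, -0.13 for III, 0.37 for IV and 0.09 for V. The standard errors of the 53 estimates lay between 0.34 and 0.95 in neutrophils and between 0.09 and 0.38 in LSK cells, so a difference of the median size seen in LSK cells was not detectable with this spread.

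The KO neutrophil libraries differed among themselves. The third KO library was above both other KO libraries for 46 of the 53 genes and the highest of all 5 libraries for 43. Relative to the WT mean, the median gene stood at -0.21, -0.37 and 0.82 in the 3 KO libraries and at -0.08 and 0.07 in the WT libraries. Without the third KO library the medians were -0.40 for complex I, -0.03 for II, -0.35 for III, -0.25 for IV and -0.28 for V, and without both it and the second WT library they were -0.17, -0.15, -0.34, -0.06 and -0.25, with 0 of the 53 passing edgeR's test in either case. The sign of the median for complexes I, II, IV and V thus depended on the third KO library, and that of complex III, -0.13 with all libraries, was 0.02 without the second KO library and 0.18 without the first WT library.

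Cox7a2 had the largest estimate in neutrophils, at 119, 97.5 and 546 CPM in KO and 108 and 147 CPM in WT (log2 1.0, SE 0.82, adjusted p = 0.621). The high value was that of the third KO library alone, and the other KO libraries overlapped WT. Ndufs1 had the smallest p-value, at 51.7, 55.9 and 35.5 CPM in KO and 32.9 and 33.7 CPM in WT (log2 0.52, SE 0.36, adjusted p = 0.564). All 3 KO libraries were above both WT libraries, and here the third was the lowest of the KO libraries. Cox5b had 40, 43.6 and 111 CPM in KO and 43.1 and 42.7 CPM in WT (log2 0.60, SE 0.53, adjusted p = 0.648), and Uqcrb had 27.2, 26.7 and 89.3 CPM in KO and 23.2 and 36 CPM in WT (log2 0.69, SE 0.63, adjusted p = 0.656). In both, the third KO library alone stood high.

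Groups that did not overlap were few in neutrophils, with 3 genes above (Ndufs1, Sdhc and Atp5f1) and 1 below (Ndufa10), while over all genes tested 17.0% had all KO libraries above WT and 17.5% had all below. Atp5f1 had 203, 173 and 392 CPM in KO and 165 and 172 CPM in WT (log2 0.60, SE 0.50, adjusted p = 0.628). Ndufs3 was lower by estimate, at 15.6, 13.4 and 22.7 CPM in KO and 20.6 and 29.6 CPM in WT (log2 -0.54, SE 0.40, adjusted p = 0.588). Ndufa10 had 60.6, 57.9 and 42.7 CPM in KO and 64.7 and 70 CPM in WT (log2 -0.33, SE 0.34, adjusted p = 0.704), with the third KO library the lowest of all.

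Transcript length went with how high the genes stood in the third KO neutrophil library. Its log2 ratio to the mean of the other 2 KO libraries had a median of 1.32 over the 27 subunit genes with a principal transcript under 1000 bases, and all 27 were above 0. Over the 26 longer genes the median was 0.70, and 20 were above 0. Spearman's rho between length and this ratio was -0.53 over the 53 genes, which share the same libraries, and -0.37 over the 10280 genes tested that had a length and were above 0 in every library. All short genes tested in neutrophils had a median of 0.94, against -0.16 for long genes, so the short subunit genes were high together with other short genes. The same library held 18.2% of its reads in S100a8, against 5.95% and 5.04% in the other KO libraries and 3.48% and 1.80% in WT. The part of length, red cell markers and S100a8 in these levels was not tested.

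In LSK cells length went with the difference between the KO libraries among the subunit genes. The log2 ratio of the first to the second KO library had a median of 0.25 over the 27 short genes, 22 of them above 0, and -0.07 over the 26 longer genes, 10 of them above 0. Spearman's rho was -0.38 over the 53 genes but 0.060 over 12042 genes tested that had a length and were above 0 in every library, whose medians were 0.11 for short and -0.0066 for long genes. Cox7b, Ndufa4 and Ndufb6, the genes with the highest such ratio, have principal transcripts of 1001, 610 and 659 bases. The WT libraries also differed, with the log2 ratio of the first to the second above 0 for 49 of the 53 genes (median 0.15). Its Spearman's rho with length was -0.230 over the 53 genes and -0.225 over the same 12042 genes. For KO over WT, the median was 0.32 in short genes and 0.49 in longer ones, with a Spearman's rho of 0.52 over the 53 genes and -0.05 over the same 12042 genes. Both length classes were thus above the all-gene median, and the longer genes were further above it.

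**Figure D5:**
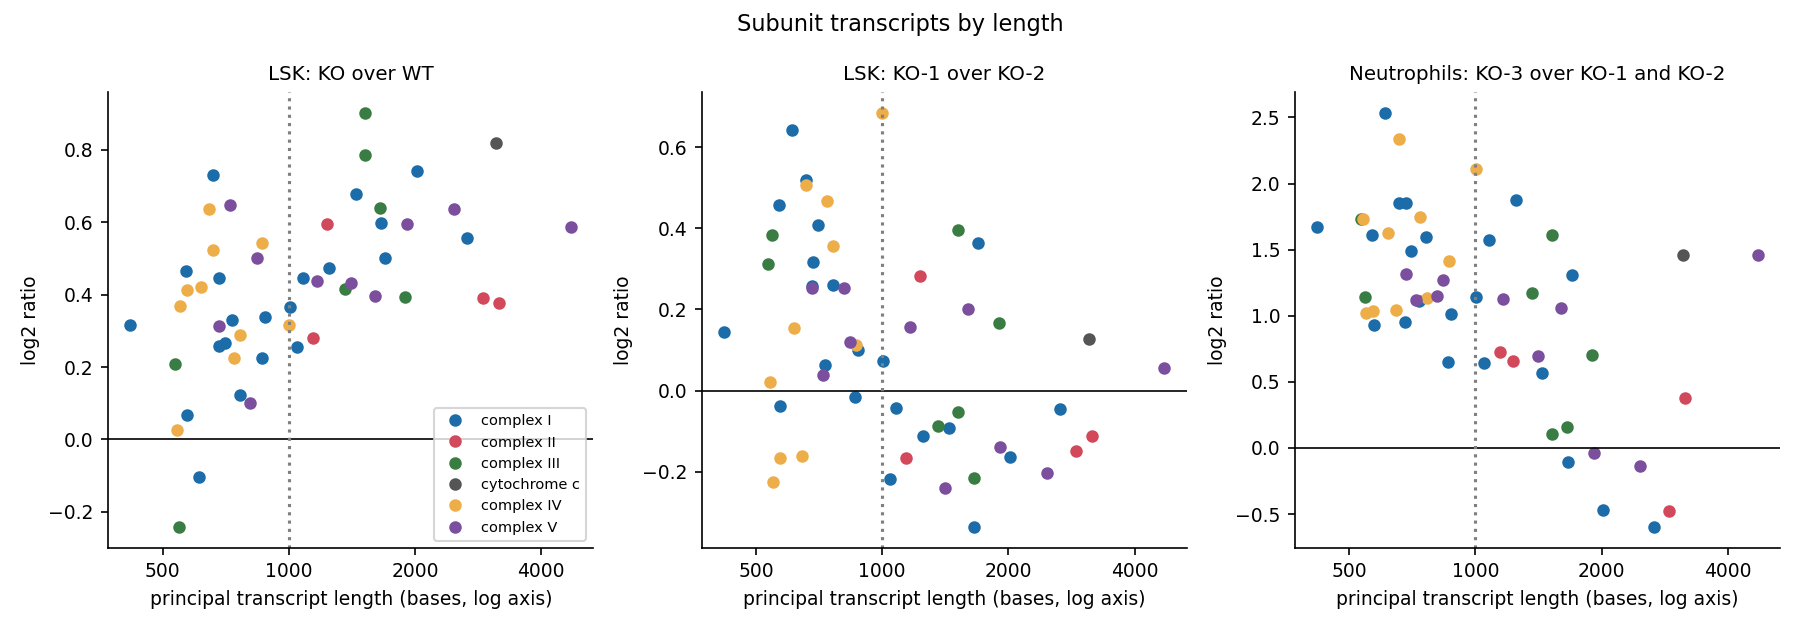
Log2 ratio against principal transcript length (log axis, dotted line at 1000 bases) for the 53 subunit genes: KO over WT in LSK cells, the first over the second KO LSK library, and the third KO neutrophil library over the mean of the other 2. Short transcripts have a median of 0.32, 0.25 and 1.32 in the 3 panels and longer ones 0.49, -0.07 and 0.70.

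A fit over all 9 libraries and 13387 genes tested, as an interaction term, whether the KO difference itself differed between LSK cells and neutrophils. Of the 53 subunit genes, 0 passed edgeR's test, 1 had an unadjusted p under 0.05 and DESeq2 gave 0, while of all genes 0.0299% passed with edgeR, and DESeq2 called 554 higher and 398 lower of 20588. That gene was Ndufa10, with an interaction of 1.11 on the log2 scale and an adjusted p of 0.234. For 42 of the 53 genes the estimate was positive, meaning a higher log2 fold change in LSK cells than in neutrophils, whatever the sign of either. It was negative for 11. The median was 0.36, against 0.21 over all genes tested. So although 36 genes passed in LSK cells and 0 in neutrophils, the difference between the populations was not shown for any single subunit gene.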

How the data were processed

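Libraries were made with the RNeasy Micro kit and SMART-Seq v4, which does not mark strand, per the labels' protocols. STAR, featureCounts and DESeq2 are named with the mouse builds mm10 and GRCm38, per the submitters' processing notes, without versions, annotation or strand setting. The authors deposited raw counts per gene. Their deposited normalized signal was the raw value over 1 factor for each library, within 0.1% for all well-counted genes of the neutrophil libraries and all but 4 to 6 such genes of each LSK library, and was not tested. The raw counts were tested with edgeR 4.0.16 (quasi-likelihood F test, TMM scaling, low genes filtered by its default) in R 4.3.3 with limma 3.58.1, KO over WT, each population alone, with Benjamini-Hochberg adjustment over all genes tested. DESeq2 1.42.0 was an alternative. CPM values are TMM-scaled. The interaction was fitted over 9 libraries and 34431 genes joined by symbol. Scripts were tested on simulated data.

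The members and lists were chosen with earlier results of these data known. Genes given with values were, in each complex, the 3 with the smallest LSK p-value and the one with the largest, in neutrophils the 6 with the smallest p-value, Cycs, the c-subunit genes, those of highest and lowest level per length and up to 4 per further list. Other genes given with values were chosen after their values were seen. Coordinates and transcript lengths are from GENCODE on GRCm38, and promoter sequences are RefSeq's. Replicate numbers are shared between KO and WT; deviations of same-numbered LSK libraries correlated at -0.015, and of neutrophil libraries at 0.172. Replicate libraries differed by more than sampling noise.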

Additional observations from a re-analysis of the deposited data

How the results depend on the processing

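The direction of the subunit genes in LSK cells was kept in every alternative for the 5 complex medians, while the number passing moved. Of the 53 genes, 23 passed with library size alone, 0 when the spread was shared with the neutrophil libraries, and 15 to 42 when 1 library was left out. Genes passing as lower numbered 1 with upper-quartile scaling, 1 with library size alone, and 0 to 2 with 1 library left out. With the replicate number as a block 39 passed, among them 35 of the 36. The cause of these shifts was not tested.

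Library size alone gave LSK medians of 0.21 for complex I, 0.22 for II, 0.26 for III, 0.23 for IV and 0.31 for V, and upper-quartile scaling gave 0.27, 0.29, 0.32, 0.30 and 0.38 for I to V. With 1 LSK library left out, the medians ran between 0.29 and 0.47 for complex I, 0.32 and 0.48 for II, 0.37 and 0.50 for III, 0.27 and 0.50 for IV, and 0.41 and 0.56 for V. Without genes that share exon bases or have a named pseudogene the medians were 0.71 for III and 0.59 for V, and without genes sharing over 10% of their 50-base stretches, an alternative chosen after seeing the data, 0.64 for III and 0.60 for V, so that III and not V was highest in both.

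In neutrophils 0 of the 53 genes passed edgeR's test in any alternative, and DESeq2 also gave 0. Library size alone, under which the median of all genes was -0.64, gave medians of -0.79 for complex I, -0.43 for II, -0.73 for III, -0.43 for IV and -0.61 for V. With 1 library left out they ran between -0.40 and 0.39 for I, -0.03 and 0.38 for II, -0.35 and 0.18 for III, -0.25 and 0.65 for IV, and -0.28 and 0.31 for V. With the replicate block, in which the third KO library has no WT partner and so carries no weight on KO against WT, they were -0.36 for I, -0.015 for II, -0.25 for III, -0.24 for IV and -0.27 for V. Without both the second WT and the third KO library, chosen after seeing the data, the median of complex II was -0.15.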
